A study of Mus musculus with 9 samples.

Results

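The interleukin-6 (IL-6) family of cytokines and receptors was described in B16 mouse melanoma cells as 10 genes: the receptor chains Il6st, Osmr, Lifr, Il6ra, Il11ra1 and Cntfr and the ligands Il11, Lif, Clcf1 and Il6. The members were taken by symbol from the gene tables, and all 10 had a row among 21676 genes. The family was chosen by readouts of these same libraries, in which large changes against control were already known, so the comparisons of its members with control are given as a description, with no p-values; where calls against control are counted or marked, nothing is read from them. RNA was sequenced from 9 libraries of cultured B16 cells: 3 replicates with a control hairpin (labelled shCotrol, called control here), 3 with the hairpin shAD4-1 and 3 with the hairpin shAD4-2. The series title names ADGRL4, an adhesion G protein-coupled receptor; that gene was not analysed here, so the depth of the knockdown is not given. No agent, time point or host animal is named, all 3 groups share the same parent cells and medium, and the labels do not say whether each hairpin line is a clone or a pool or whether replicates were separate cultures. The p-values therefore measure the spread between these libraries, which may be technical.

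The cytokines among the members signal through gp130, the shared chain encoded by Il6st. IL-6 and IL-11 first bind a ligand-specific alpha receptor, encoded by Il6ra or Il11ra1, and then bring gp130 together in pairs, whereas leukaemia inhibitory factor (Lif) joins gp130 to the chain encoded by Lifr, and oncostatin M joins it, in the mouse above all, to the chain encoded by Osmr. Cardiotrophin-like cytokine (Clcf1) uses the alpha receptor encoded by Cntfr together with gp130 and Lifr. The paired chains activate JAK kinases, which phosphorylate STAT3 above all, and melanoma cells are known to respond to several of these ligands.

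The receptors share a sequence signature, a tryptophan-serine-any-tryptophan-serine box near the membrane-side end of the cytokine-binding module. The boxes are shown for those receptor chains that hold an exact match, which not all do, whatever their level in these cells. They were read in frame from the longest coding sequence of each gene in the GENCODE M21 annotation of GRCm38, an older build than the one the authors used. Capitals mark the tryptophan and serine codons, lower case marks the variable codon, and the number after each name is the codon at which the box starts.
Il6st, codon 308: TGGAGTgacTGGAGT
Lifr, codon 230: TGGAGTgacTGGAGC
Lifr, codon 514: TGGAGCaggTGGAGT
Il6ra, codon 300: TGGAGCgaaTGGTCC
Il11ra1, codon 304: TGGAGCgccTGGAGC
Cntfr, codon 290: TGGAGTgacTGGAGC
The first Lifr box and the Cntfr box have the same letters, and the Il6st box differs from them only in its last codon for serine. In Osmr no exact match was found, which says only that these letters are not in that reading frame. Of 22075 genes with a coding sequence, 76 (0.344%) held an exact match.

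The libraries held 31.3 to 36.9 M counted reads. After a filter on low counts 13807 genes were tested, among them 9 of the 10 members; Il6 had too few reads. Osmr and Il11 passed the filter through the libraries of the knockdown hairpins, so for them a difference from control was bound to follow from passing. Control replicate 1 stood apart from the other control libraries, with a chi-square per degree of freedom of 12.4 and 18.1 against them, where other pairs within a group gave 2.99 to 6.17. Mitochondrially encoded genes took 2.30% to 2.61% of the reads in control, 3.62% to 3.81% with shAD4-1 and 3.60% to 3.89% with shAD4-2, a difference that runs alongside every comparison with control below; its part in them was not tested. All 8 melanocyte markers had a row and reached at least 0.1 FPKM (fragments per kilobase of gene and M counted reads), with a summed level of 6421 to 7311 FPKM in control, 6310 to 6470 with shAD4-1 and 6446 to 6958 with shAD4-2. Single markers moved within that sum. With shAD4-1 7 of 8 were called lower and Gpnmb higher, where 32.3% of all tested genes were called lower and 32.7% higher. With shAD4-2 3 were higher, among them Pmel (log2 fold change 0.46), and 2 lower, Tyr (-0.61) and Tyrp1 (-0.33). Of all tested genes 34.2% were called higher and 34.8% lower with shAD4-2.

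Osmr, the oncostatin M receptor chain, went from near absence in control to a clear level with both knockdown hairpins. In control it was at 0.0234, 0.0373 and 0.0304 FPKM, from 4, 7 and 6 reads. With shAD4-1 it was at 2.05, 2.22 and 2.12 FPKM (409, 432 and 424 reads) and with shAD4-2 at 2.29, 1.79 and 1.96 FPKM (454, 305 and 334 reads). Every library of both hairpins lay far above every control library, and the libraries of the hairpins overlapped each other. The fitted log2 fold change was 6.15 (SE 0.20) for shAD4-1 and 6.07 (SE 0.21) for shAD4-2. Because the control rests on 17 reads in all, the ratio of reads scaled to depth is the more direct measure: 72.5 for shAD4-1, with an exact 95% counting interval of 45.1 to 125, and 69.0 for shAD4-2, with an interval of 42.9 to 119. These intervals, and all counting intervals below, cover counting error only. They leave out the spread between libraries and are not tests of a difference. In terms of rank, 29.7% of genes lay below Osmr in control, 55.3% with shAD4-1 and 55.0% with shAD4-2.

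Il6st, the gp130 chain through which the member ligands signal, was an abundant transcript in each group and moved little. Its level was 11.5, 13.2 and 13.7 FPKM in control, 15.3, 15.5 and 15.7 with shAD4-1, and 12.6, 12.4 and 12.5 with shAD4-2. The shAD4-1 libraries lay above all control libraries, while those of shAD4-2 lay within the control range. The log2 fold change against control was 0.33 (SE 0.06) for shAD4-1 and 0.02 (SE 0.06) for shAD4-2.

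Lifr, the chain that pairs with gp130 for leukaemia inhibitory factor and for the Cntfr ligands, was at 0.413, 0.697 and 0.624 FPKM in control. It was at 1.16, 1.14 and 1.22 FPKM with shAD4-1 and at 0.768, 0.701 and 0.764 with shAD4-2. All libraries with shAD4-1 stood well above control, whereas the lowest shAD4-2 library nearly met the highest control. The log2 fold change was 1.08 (SE 0.14) for shAD4-1 and 0.41 (SE 0.14) for shAD4-2. Control replicate 1 is the lowest of the 9 libraries for both Il6st and Lifr, and without it the shAD4-2 value for Lifr was 0.24 and it was no longer called.

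Among the ligand-binding alpha receptors, which have little or no signalling tail of their own, only Il6ra changed by a large factor. The IL-6 receptor transcript was low in control, at 0.226, 0.137 and 0.163 FPKM (24, 16 and 20 reads). It was at 0.500, 0.761 and 0.466 FPKM with shAD4-1 and at 0.650, 0.813 and 0.632 with shAD4-2. No library of either hairpin overlapped control, and the log2 fold changes were 1.78 (SE 0.29) and 2.05 (SE 0.29). The other alpha receptors were the most abundant members and stayed near their control level. Il11ra1, the IL-11 receptor, was at 23.3, 24.6 and 26.2 FPKM in control, 24.7, 26.3 and 25.0 with shAD4-1, and 20.3, 20.2 and 19.2 with shAD4-2. The shAD4-2 libraries lay below all others, with a log2 fold change against control of -0.26 (SE 0.06), while that of shAD4-1 was 0.09 (SE 0.06). Il11ra1 has a near-identical mouse copy, Il11ra2, which had 0 to 5 reads in any library; reads that fit both copies could have been divided or dropped, so the level of Il11ra1 is uncertain to that extent. Cntfr, the ciliary neurotrophic factor receptor, was at 16.4, 17.0 and 18.4 FPKM in control, 17.5, 17.5 and 17.0 with shAD4-1, and 17.9, 17.6 and 16.9 with shAD4-2, and the 3 groups overlapped.

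Of the ligands, Il11 and Clcf1 were higher with both hairpins. Il11, a cytokine known for its part in fibrosis and in tumour cells, was at 0.162, 0.0740 and 0.0603 FPKM in control, from 14, 7 and 6 reads. It was at 2.34, 2.22 and 2.51 FPKM with shAD4-1 and at 2.24, 2.60 and 2.62 with shAD4-2, from 218 to 253 reads a library. The read ratio was 25.5 for shAD4-1 (exact 95% counting interval 17.4 to 39.0) and 26.7 for shAD4-2 (18.2 to 40.8), and the fitted log2 fold changes were 4.65 (SE 0.24) and 4.72 (SE 0.24). Control replicate 1 was the highest control library for Il11, still far below every library of the hairpins.

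Clcf1 was at 1.38, 1.38 and 1.56 FPKM in control, 4.48, 4.32 and 4.59 with shAD4-1, and 3.74, 4.04 and 4.78 with shAD4-2. The groups did not overlap with control, and the log2 fold changes were 1.68 (SE 0.13) and 1.59 (SE 0.13). Lif, which keeps mouse embryonic stem cells undifferentiated, was low throughout: 0.215, 0.317 and 0.326 FPKM in control, 0.343, 0.230 and 0.322 with shAD4-1, and 0.411, 0.362 and 0.273 with shAD4-2. Its libraries overlapped between all groups, and its log2 fold changes were 0.11 (SE 0.26) and 0.34 (SE 0.26). Il6 itself was at the edge of detection, with 6, 1 and 4 reads in control, 1, 4 and 0 with shAD4-1, and 0, 1 and 0 with shAD4-2. The ratio of its reads to control was 0.443 for shAD4-1 (exact 95% counting interval 0.121 to 1.38) and 0.0976 for shAD4-2 (0.00227 to 0.672). Of the 11 control reads 6 came from control replicate 1.

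**Figure D1:**
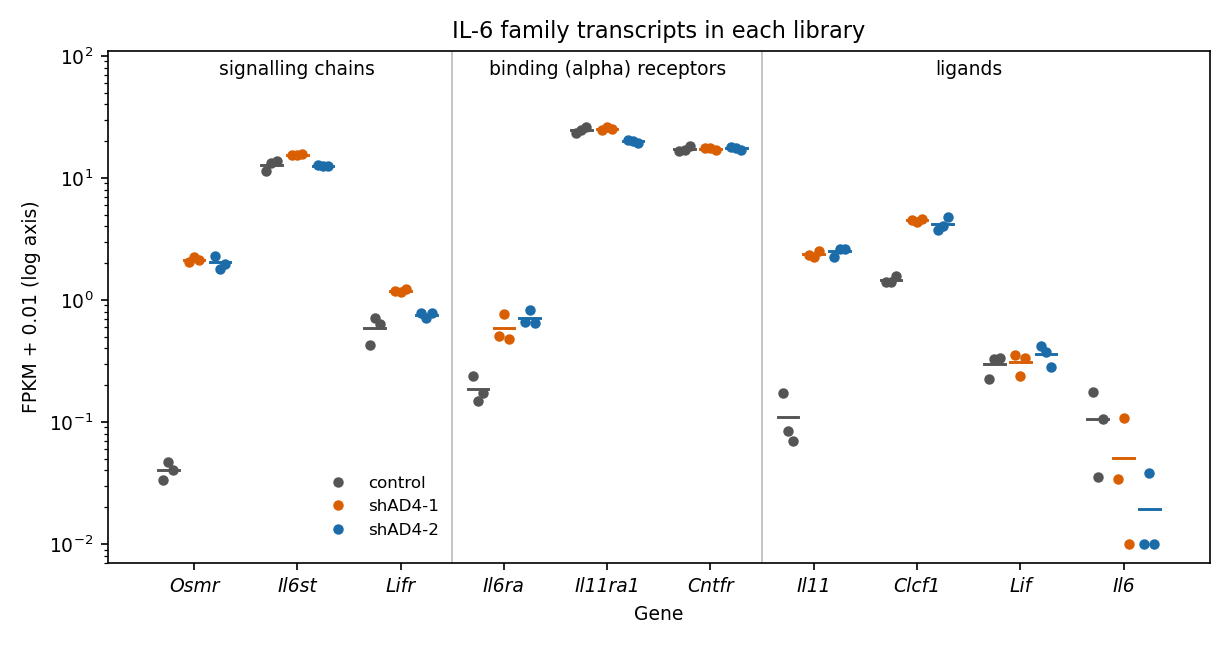
Level of each member in every library, on a log axis of FPKM + 0.01; points are libraries, bars are group means, and colours are the control, shAD4-1 and shAD4-2 groups (n = 3 each). Osmr and Il11 lie near the bottom of the axis in control and between 1.79 and 2.62 FPKM with both hairpins, while Il11ra1, Cntfr and Il6st stay at the top in every group.

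Counted at an adjusted p under 0.05 in edgeR's quasi-likelihood test, 6 of the 9 tested members were called with shAD4-1, all 6 higher, where 65% of all tested genes were called, 32.7% higher and 32.3% lower. With shAD4-2 again 6 of 9 were called, 5 higher and 1 lower (Il11ra1), where 69% of all tested genes were called, 34.2% higher and 34.8% lower. The 5 members higher with both were Osmr, Lifr, Il6ra, Il11 and Clcf1; the hairpins share the same control libraries. The median log2 fold change of the tested members was 1.08 with shAD4-1 and 0.41 with shAD4-2, beside -0.01 in each comparison over all tested genes. Between the hairpins it was -0.08. Nothing is read from these counts, because the contrasts were in view when the family was chosen.

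The hairpins were also contrasted directly with each other; the control libraries do not enter this difference, but they share the filter, the scaling and the estimate of spread, all from 1 model of the 9 libraries. Il6st, Lifr and Il11ra1 were lower with shAD4-2 than with shAD4-1, and no other tested member differed. The difference in log2 was -0.31 (SE 0.06) for Il6st, with an adjusted p of 0.000433 in edgeR's quasi-likelihood test, so that its level with shAD4-2 was 0.806 times that with shAD4-1 (95% interval 0.743 to 0.874). For Lifr it was -0.66 (SE 0.13), or 0.633 times (0.520 to 0.769), with an adjusted p of 0.00132. For Il11ra1 it was -0.35 (SE 0.06), or 0.785 times (0.723 to 0.853), with an adjusted p of 0.000195. In each of the 3 genes every shAD4-2 library lay below every shAD4-1 library. How many of all tested genes separate in this way was not counted, so nothing is read from it. These 3 of 9 members, 0 higher and 3 lower, stand beside 27.4% of all tested genes called between the hairpins, 13.4% higher and 14% lower. With so few members the count is near the share of all genes and is not read as a trait of the family.

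The members that stood highest against control did not pass the test between the hairpins. The level with shAD4-2 relative to shAD4-1 had a 95% interval of 0.807 to 1.11 for Osmr (adjusted p = 0.635 in edgeR's quasi-likelihood test), 0.845 to 1.31 for Il11 (0.765) and 0.792 to 1.10 for Clcf1 (0.574). For Il6ra the interval was 0.838 to 1.75, for Lif 0.805 to 1.70 and for Cntfr 0.942 to 1.08. Differences inside these intervals could not be resolved with 3 libraries a group.

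**Figure D2:**
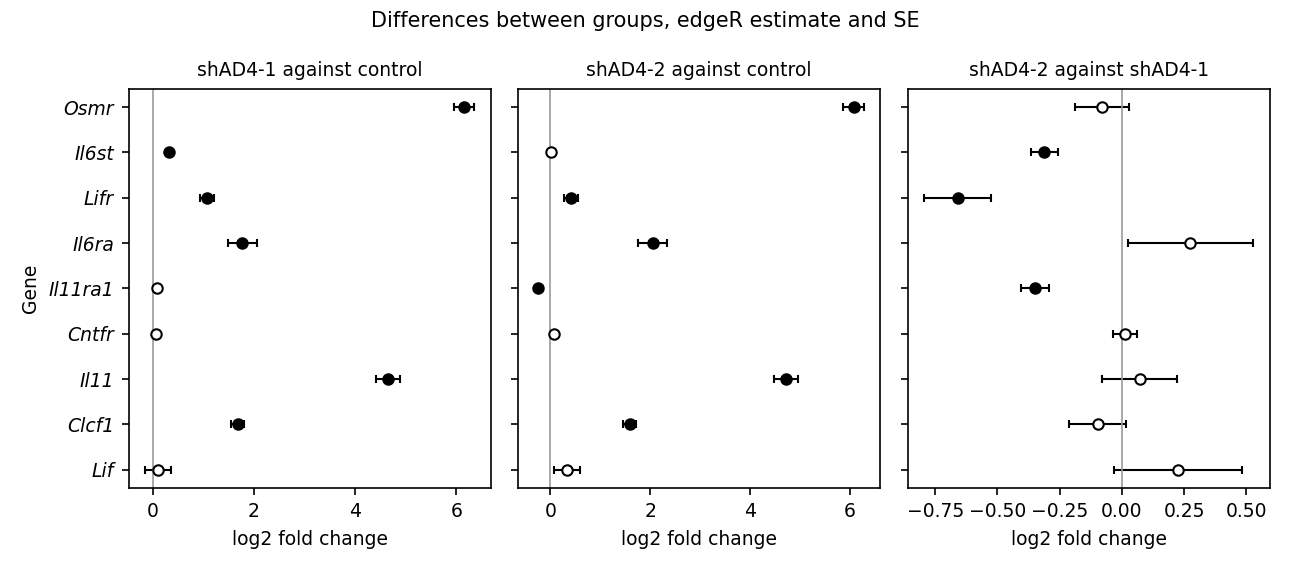
Fitted log2 fold change of the 9 tested members in the 3 comparisons, with bars of 1 SE; filled points have an adjusted p under 0.05 and open points do not, and the panel of shAD4-2 against shAD4-1 has a narrower axis than the others. Osmr (6.15 and 6.07) and Il11 (4.65 and 4.72) stand apart against control, and Il6st, Lifr and Il11ra1 are the filled points between the hairpins.

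Since FPKM is a level per length of gene, members can be set in order within a group. In control the order of mean FPKM was Il11ra1 (24.7), Cntfr (17.3), Il6st (12.8), Clcf1 (1.44), Lifr (0.578), Lif (0.286), Il6ra (0.175), Il11 (0.0989), Il6 (0.0962) and Osmr (0.0304). From Lif downwards each neighbouring pair overlapped between libraries, so their order is not resolved. With shAD4-1 Il11 (2.36) and Osmr (2.13) stood above Lifr (1.17) and Il6ra (0.575), and no neighbouring pair overlapped. With shAD4-2 the order was the same, but Il11 (2.48) overlapped Osmr (2.02) and Lifr (0.744) overlapped Il6ra (0.698).

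Osmr and Lifr encode the chains that pair with gp130, and their order of level was reversed between control and the hairpins. In control Lifr stood at 19.0 ± 1.45 times the FPKM of Osmr (SD, n = 3). Osmr had only 17 control reads in all, so the SD of its control ratios does not show their full counting error. Osmr also passed the filter through the hairpin libraries, so the reversal is a description only. With shAD4-1 Osmr stood at 1.81 ± 0.109 times Lifr, and with shAD4-2 at 2.70 ± 0.246 times. Set against the shared chain, Osmr was at 0.00236 ± 0.000411 of Il6st in control, 0.137 ± 0.00553 with shAD4-1 and 0.161 ± 0.0192 with shAD4-2, so Il6st stood above Osmr in all groups. Between the hairpins the ratio of Osmr to Lifr was 1.49-fold higher with shAD4-2, higher in each library than in any library of shAD4-1 (two-sided exact permutation test, p = 0.1, the smallest that 3 against 3 allows; 0.125 adjusted over 5 ratios). The same p was found for 4 of the 5 ratios. Such a design cannot pass the threshold of 0.05, so nothing is read from the separation of libraries. The ratio of Osmr to Lifr also follows from the log2 differences between the hairpins, -0.66 for Lifr and -0.08 for Osmr, and is no separate result. Transcript ratios are no measure of the receptor chains on the cell surface.

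**Figure D3:**
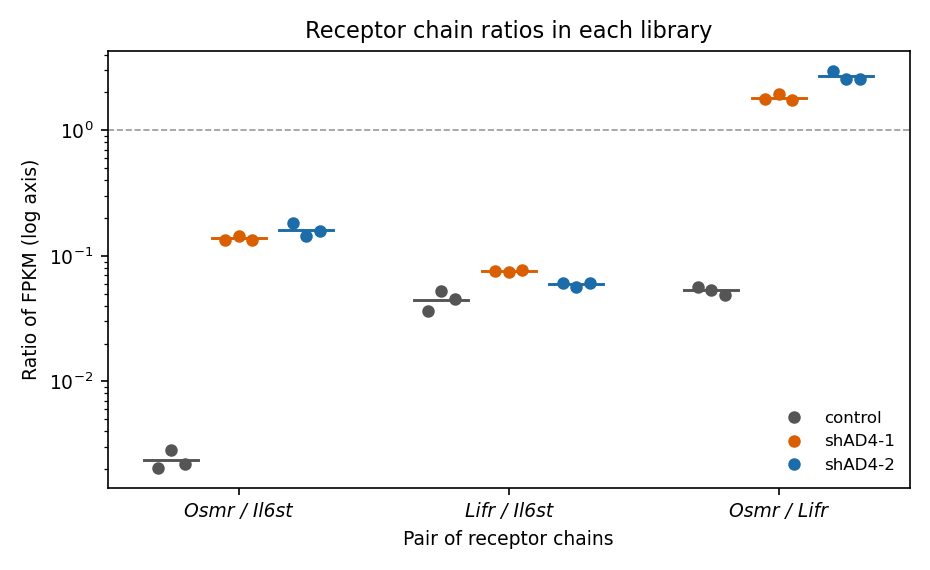
Ratios of FPKM between receptor chains in each library, on a log axis; points are libraries, bars are means, and colours are the groups (n = 3 each). Osmr, with only 17 control reads in all, lies below Lifr in every control library and above it in every library of both hairpins.

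Of 11 other ligands and receptors of the family listed beside the members, 7 had a row and 3 had enough reads to test. Ctf1, which encodes cardiotrophin-1, a ligand of Lifr and gp130, was lower in every hairpin library than in any control library. It was at 0.41, 0.409 and 0.71 FPKM in control, 0.0669, 0.12 and 0.0333 with shAD4-1, and 0, 0.0392 and 0.0196 with shAD4-2, the first of these being listed at 0. Its reads went from 86 in control to 13 with shAD4-1, a ratio of 0.147 (exact 95% counting interval 0.0754 to 0.266), and to 3 with shAD4-2, a ratio of 0.0375 (0.00758 to 0.113). Ctf1 passed the filter on low counts through the control libraries, so a difference was bound to follow, and no p-value is given. Il27ra, a receptor chain that also pairs with gp130, had 4, 5 and 5 reads in control, 9, 8 and 12 with shAD4-1, and 7, 11 and 17 with shAD4-2. The read ratio to control was 2.02 for shAD4-1 (exact 95% counting interval 1.03 to 4.14) and 2.68 for shAD4-2 (1.41 to 5.40). It passed the filter through a few hairpin libraries, so no p-value is given for it either. The counting intervals of Ctf1 and Il27ra are no test in its place, also where they leave out 1. Osm, which encodes oncostatin M, the ligand of the Osmr chain, was among the 4 listed genes without a row and was not analysed here.

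The genes whose pattern over the 9 libraries was most like a member's were found by the mean absolute difference of log2 CPM, each gene centred on its own mean, among 10693 genes. For Osmr these were Slc38a3, an amino acid transporter (difference 0.14), Fam13c (0.16), Ppp1r3b, a glycogen-targeting subunit of protein phosphatase 1 (0.24), and Prkg2, a cGMP-dependent kinase (0.25). For Il6st they were Nrp2, Tle5, Vegfa and Nectin2, with differences of 0.027 to 0.037. For Lifr they were Dhrs3 (0.080), Lrp8, Ltbp4 and Lhfp (0.12 to 0.13). The smaller differences for Il6st go with its smaller range.

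By gene order in a RefSeq table of GRCm38.p6, Osmr and Lifr are neighbours on chromosome 15, with 1 untested row, Gm30559, between them. On the side of Osmr, the next tested gene Rictor rose by 0.52 on the log2 scale with shAD4-1 and by 0.68 with shAD4-2, and the one beyond it, Fyb, fell by 1.61 and by 1.03. On the side of Lifr, Nup155 rose by 0.78 and by 0.94, while Wdr70 had values of -0.04 and -0.05 and was not called. Il11ra1 and Cntfr lie on chromosome 4 with 6 rows between them. Of the 4 nearest tested genes of Il11ra1, 3 were also lower with shAD4-2 than with shAD4-1 in edgeR's quasi-likelihood test: Galt by -0.36 (adjusted p = 0.00522), Dnajb5 by -0.34 (0.0377) and Ccl27a by -0.56 (0.0415), where 14% of all tested genes were lower. Of the nearest tested genes of Il6st 1 of 4, Ddx4, was lower (-0.59, adjusted p = 0.0265). Beside Lifr, Rictor and Nup155 were higher with shAD4-2, by 0.16 each (0.00500 and 0.00800), against the direction of Lifr. Because strand use in the counting is not given, reads of overlapping genes cannot be told apart.

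Promoter windows from RefSeq (GRCm38.p6) were found for 9 of the 10 members; Clcf1 had no entry. They were searched on both strands for 4 motifs: TGAGTCA (AP-1, found in 4.46% of all windows), TTCNNNGAA (STAT, 7.02%), GGAATG (TEAD, 12.6%) and TGACGTCA (CRE, 1.55%). No window of Osmr, Il6st, Lifr or Il6ra held any of them, which draws nothing about the factors. Some windows overlapped exons of members in GENCODE M21. Summed over exons, the overlap was 250 bases for the only Osmr window, which has 250 bases. It was 247 bases for the first Il11ra1 window and 140 for the fourth Cntfr window. These windows need not lie before every start of their gene. AP-1 matches lay in windows of Il11, Lif and Il6, and TEAD matches in windows of Il11ra1 and Cntfr. The Il11 window is shown because Il11 is the ligand with the largest change; it lies at chr7:4778142-4778391 on the minus strand, upstream of the second listed start, and capitals mark the match, 98 to 92 bases before that start.
Il11: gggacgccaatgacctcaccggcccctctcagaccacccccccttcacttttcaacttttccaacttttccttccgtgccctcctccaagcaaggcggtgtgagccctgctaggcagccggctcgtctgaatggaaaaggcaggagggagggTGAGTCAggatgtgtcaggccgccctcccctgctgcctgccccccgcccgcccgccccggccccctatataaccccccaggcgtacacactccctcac
Lif, whose window also holds an AP-1 match, was not called with either hairpin. A match is a description of letters and no evidence of binding.

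The signalling genes downstream of gp130 were followed with a list of 47, of which 46 had a row and 43 were tested. With shAD4-1 20 were higher and 14 lower, and with shAD4-2 17 were higher and 15 lower, beside the shares of all genes given above. With both hairpins, which share their controls, 16 of 43 were higher and 13 lower and 0 changed in opposite directions, where 28.1% of all tested genes were higher with both, 27.6% lower with both and 0.659% called in opposite directions. The counts by role below have the same background. The list and its named genes were chosen with earlier results of these data known. Adjusted p-values of its genes against control are therefore a description and no test. The median log2 fold change of the list was 0.13 and 0.04. Between the hairpins 7 of 43 were higher and 11 lower with shAD4-2. Of all tested genes 27.4% were called between the hairpins, 13.4% higher and 14% lower. Without shAD4-1 replicate 2 or without shAD4-2 replicate 1 the counts of the list were 5 and 7. No trait of the list is read from these counts.

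Of 7 tested kinases and STAT factors, 2 rose and 3 fell with both hairpins. Jak2, a kinase bound to gp130, fell by 0.75 and by 1.06, from 8.95 ± 0.414 FPKM in control to 5.11 ± 0.168 and 4.14 ± 0.225 (SD, n = 3). Stat3, the main factor of the pathway, was at 27.1, 31.6 and 32.7 FPKM in control, 33.8, 34.6 and 31.7 with shAD4-1, and 29.5, 30.6 and 29.1 with shAD4-2. Its log2 fold change was 0.19 with shAD4-1 (adjusted p = 0.0075 in edgeR's quasi-likelihood test), a call lost with limma on FPKM, and 0.02 with shAD4-2 (0.778). Stat5b rose by 0.44 and by 0.65. Jak1 differed between the hairpins by -0.17 (adjusted p = 0.00184), in the same direction as Il6st. Transcript levels do not show whether STAT3 was phosphorylated, which was not measured here.

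Inhibitors of the pathway moved in both directions: of 7 tested, 2 rose and 1 fell with both hairpins. Socs3, the feedback inhibitor that STAT3 induces and that binds gp130, was at 3.86, 3.22 and 3.82 FPKM in control, 5.27, 5.25 and 4.80 with shAD4-1, and 3.46, 4.44 and 4.61 with shAD4-2. It rose by 0.55 on the log2 scale with shAD4-1 (adjusted p = 0.000232 in edgeR's quasi-likelihood test), and with shAD4-2 its value was 0.25 (0.0543), which was called with RLE scaling, with DESeq2, and without control replicate 1 (0.30, 0.0242), control replicate 3 (0.30, 0.0410) or shAD4-2 replicate 1 (0.38, 0.00565). The phosphatase gene Ptprj fell by 0.82 and by 0.88, and Ptpn2, whose product removes phosphate from JAKs and STATs, rose by 0.34 and 0.30. Both tested sheddases, the proteases that release soluble IL-6 receptor, fell: Adam17 by 0.47 and by 0.34, and Adam10 by 0.25 and by 0.34. Of 4 tested adaptors, Grb2 and Shc1 fell with both hairpins, and Ptpn11, which encodes the phosphatase SHP2, rose by 0.25 with shAD4-2 and had a value of 0.04 with shAD4-1.

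Of 23 tested genes known to respond to STAT3, 12 rose and 5 fell with both hairpins. Myc, at 8.86 ± 1.09 FPKM in control, was at 17.6 ± 0.493 with shAD4-1 and 18.4 ± 0.856 with shAD4-2 (SD, n = 3), and Ccnd1, which encodes cyclin D1, went from 33.5 ± 5.42 to 67.8 ± 1.25 and 66.6 ± 0.558. Lcn2, an iron-binding acute-phase protein, fell from 9.59 ± 0.925 FPKM to 0.611 ± 0.142 and 0.938 ± 0.141. Pim3, a survival kinase, rose by 0.75 with shAD4-1 and 0.28 with shAD4-2 and differed between them by -0.47 (adjusted p = 3.68e-05 in edgeR's quasi-likelihood test). Tnfrsf1a, a receptor for tumour necrosis factor, fell by 0.45 and by 0.52. Birc5, which encodes survivin, rose by 0.16 with shAD4-1, a call lost with limma on FPKM and without shAD4-1 replicate 3 (0.13, adjusted p = 0.0817), and by 0.62 with shAD4-2. Many of these genes are known to answer to other pathways as well.

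**Figure D4:**
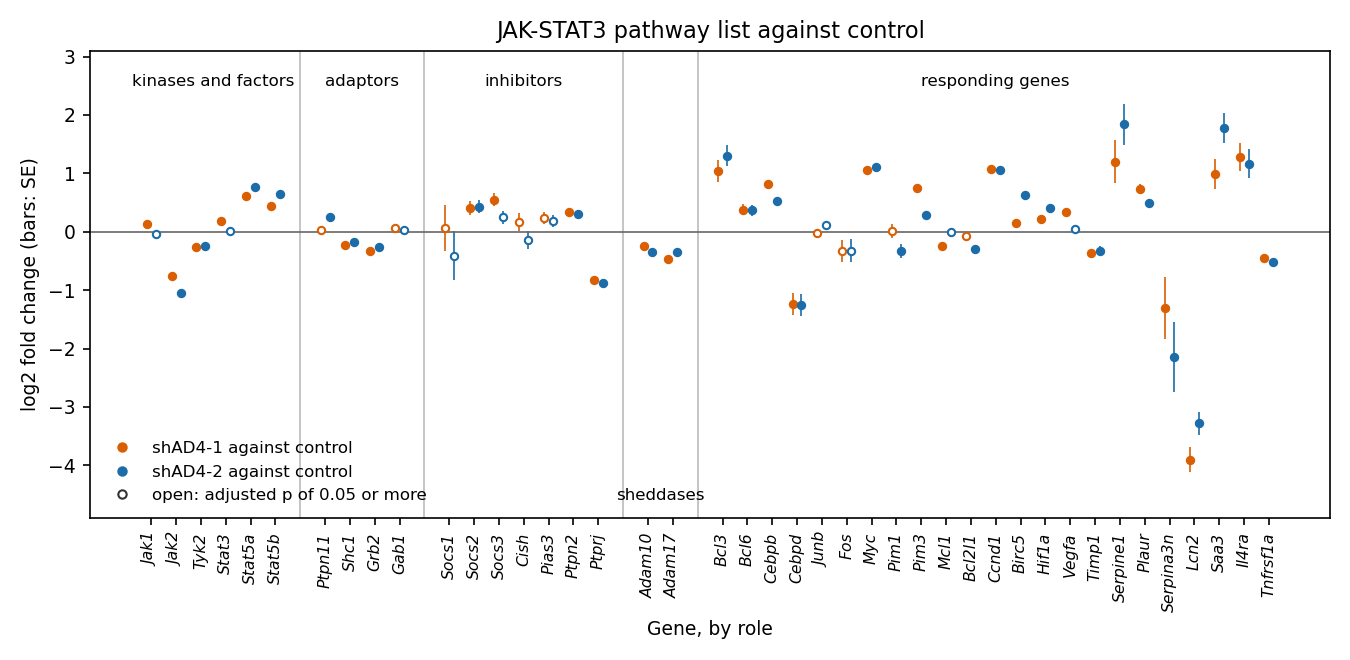
Fitted log2 fold change against control of genes of the pathway list, grouped by role, for shAD4-1 and shAD4-2; filled points have an adjusted p under 0.05 and open points do not. Lcn2 (-3.90 and -3.28) lies far below the line at 0, and Myc and Ccnd1 lie near a log2 fold change of 1 with both hairpins.

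Markers of other cell types were summed beside these results. Of 7 leukocyte markers 3 had a row, with a sum of 0.0962 to 0.274 FPKM in control, 2.13 to 3.07 with shAD4-1 and 3.87 to 4.22 with shAD4-2. Nearly all of it was Lyz2, while the defining marker Ptprc had 0, 1 and 0 reads in the 3 groups and Cd3e 1, 0 and 1. Of 7 fibroblast markers 5 had a row, with a sum of 7.90 to 8.93, 9.97 to 10.5 and 8.99 to 9.87 FPKM. Most of it was Pdgfrb, with means of 7.35, 8.52 and 7.34 FPKM. Col1a1 was at 0.432, 0.674 and 0.785 FPKM and Pdgfra at 0.366, 0.415 and 0.367. Col1a2 had 61, 387 and 488 reads (0.116, 0.677 and 0.933 FPKM) and Col3a1 9, 3 and 1. Of 5 endothelial and 5 keratinocyte markers, 3 and 1 had a row, and each was under 0.1 FPKM in every group. Their part in the results was not tested, and in bulk RNA a change in the number of cells that express a gene cannot be told apart from a change in its level per cell.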

How the data were processed

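Total RNA of 9 libraries was made into libraries with the VAHTS Universal V6 kit, per the labels' protocols. The submitters' processing notes name fastp, HISAT2, HTSeq and GRCm39; no source used here gives their versions or whether strand was used. The authors deposited whole-number read counts per gene, and FPKM for the same genes, which follow from those counts with 1 fixed length a gene. Per the file headers the columns name control and knockdown groups 1 and 2, which were matched to shAD4-1 and shAD4-2 by number.

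Counts were tested with edgeR 4.0.16 (R 4.3.3): filterByExpr, TMM scaling, 1 model of all 9 libraries by group, glmQLFit and glmQLFTest, with Benjamini-Hochberg adjustment over 13807 genes at 0.05 and no minimum fold. The scripts were tested on simulated data. The members, lists and the rule for named genes (all members; per pathway role the genes with the smallest adjusted p-values against control, at most 3 or, for responding genes, 6, plus Jak1, Stat3 and Socs3; and the 4 genes most like Osmr, Il6st and Lifr) were chosen with earlier results of these data known. Ratios use the deposited FPKM. Some genes that the rule selects are left out of the text and plots, but stay in the counts. As alternatives, DESeq2 1.42.0, RLE or upper-quartile scaling, other filters, only the groups compared, a replicate block, limma 3.58.1 on log2(FPKM + 1) and log2(FPKM + 0.1), and leaving out each library were run.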

Additional observations from a re-analysis of the deposited data

Results flagged for a closer look

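For 3 members the response to the hairpins differed in a direct test between them. Against shAD4-1, shAD4-2 had a log2 difference of -0.31 for Il6st, -0.66 for Lifr and -0.35 for Il11ra1 (edgeR's quasi-likelihood test, adjusted p = 0.000433, 0.00132 and 0.000195). They are 3 of 9 tested members, where 27.4% of all tested genes differed between the hairpins. With so few members the count is near that share, and nothing about the family is read from it. The same 3 members were called under every alternative that was run.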

How the results depend on the processing

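The total number of called genes stayed within 1.5 times its value in each comparison and list under the 19 alternatives run. By direction there were exceptions: the pathway genes lower with shAD4-2 than with shAD4-1 went from 11 to 7 without shAD4-1 replicate 2 and without shAD4-2 replicate 1, and the members higher with shAD4-2 than in control from 5 to 3 with limma and a minimum of 1 FPKM, where fewer members are tested. Family calls ranged from 5 to 8 with shAD4-1, from 4 to 7 with shAD4-2 and stayed at 3 between the hairpins. Lifr lost its call with shAD4-2 with limma on log2(FPKM + 1), where its value was 0.15, on log2(FPKM + 0.1), where it was 0.34, and without control replicate 1, where it was 0.24. Without control replicate 3, Cntfr was called higher with both hairpins (0.12 and 0.13) and Il11ra1 with shAD4-1 (0.14). The replicate numbers did not pair the libraries: the correlation of same-numbered deviations ran from -0.124 to 0.002 over 9 pairs. With the number as a replicate block 6, 6 and 3 members were called in the 3 comparisons, 34, 32 and 17 of the pathway list, and 8833, 9375 and 3511 of all genes.

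Values near 0 changed sign; the cause was not tested. With shAD4-2, upper-quartile scaling gave -0.011 for Il6st and -0.013 for Stat3, and limma gave -0.027, -0.029 and -0.027 for Il6st and -0.030, -0.031 and -0.030 for Stat3 on FPKM + 1, FPKM + 0.1 and FPKM + 1 with a filter. With shAD4-1, limma gave -0.022, -0.023 and -0.022 for Ptpn11. Leaving out 1 library at a time, the log2 fold change ran from -0.047 to 0.27 for Lif with shAD4-1, from -0.044 to 0.085 for Il6st and from -0.051 to 0.084 for Stat3 with shAD4-2, and from -0.0057 to 0.040 for Cntfr between the hairpins. Depth limits Osmr, Il11 and Il6 most, whose control levels rest on 17, 27 and 11 reads.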
